A study of Mus musculus with 48 samples.

Results

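Accessible chromatin was compared between liver metastases and lung tumors of mice whose tumors were started with Ad-CGRP-Cre, an adenovirus that expresses Cre recombinase under the CGRP promoter, which neuroendocrine cells use to make that peptide. The libraries were taken by their label for the CGRP model, which put 7 libraries in the liver metastasis group and 11 in the lung tumor group, 18 of the 48 libraries of the series. All 114043 merged peaks of the series have a value in this comparison, and all were described. Both groups carry the genotype Trp53-/-;Rb1-/-;p130-/-;R26mG, in which Cre deletes tumor suppressor genes and the Rosa26 allele reports recombination. Ages, strains and the time from infection to sampling are not given in the labels. For reference, the text also gives the change of the same peaks in tumors of the same genotype started with Ad-CMV-Cre, whose promoter is active in most cells. There, 8 libraries with amplification of Nfib (5 liver metastases, 1 lymph node metastasis and 2 lung tumors) were compared by the authors with 7 lung tumors without it, so that amplification and tissue cannot be told apart.

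Small cell lung cancer is a neuroendocrine tumor that spreads early, often to the liver. In mice, deleting tumor suppressor genes in the lung gives tumors of the same kind, and removing p130, a relative of the retinoblastoma protein, shortens the time they need. Pulmonary neuroendocrine cells make CGRP, so Ad-CGRP-Cre starts tumors in that cell type, which is one of the candidate cells of origin. Nfib encodes a transcription factor that is often amplified in the mouse model and is known to favor an open chromatin state and metastasis. In ATAC-seq, the Tn5 transposase cuts DNA where nucleosomes and other proteins leave it exposed, so that enhancers and promoters in use appear as peaks of reads. The series title asks whether the cell type of origin shapes differences between tumors, and the comparison of liver with lung asks whether metastasis in CGRP tumors goes with a change in accessible chromatin.

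The authors' deposited table gives each peak a mean normalised count, a log2 fold change of liver over lung, its standard error (SE) and p-values, with no column for a single library. Library depth is therefore unknown, and values per library, per batch or without a library were not analysed here. Each peak's mean count is the same in the CGRP and CMV comparisons, so it is not a level of the CGRP libraries alone. All 7 liver metastases and 7 of the lung tumors were prepared and sequenced in batch 2, and the other 4 lung tumors in batch 3. The part of the batch in the results below was not tested. Titles carry 3 codes among the liver metastases and 5 among the lung tumors, and all 3 liver codes also occur among the lung tumors. Without a final A or B, whose meaning the labels do not give, the 11 lung tumors have 9 distinct titles, so the number of separate lung tumors may be 9. If a code marks an animal, the libraries are not independent, and p-values measure a spread that may in part be technical. The labels describe every CGRP library as hypoaccessible, and mark 1 lung tumor and 0 liver metastases as Nfib-amplified. Tumor pieces are bulk samples, so fewer cells with an open site and a less open site in each cell cannot be told apart. No gene was assigned to a peak, so the labelled tissues were not checked against marker genes of liver, lung or neuroendocrine cells, and positions are given in build mm9.

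Few sites were called different between liver metastases and lung tumors, and most of those were less open in the liver. Of 105121 peaks with an adjusted p, 819 were lowered in liver metastases (0.779%) and 79 were raised (0.0752%) at an adjusted p under 0.05 by the authors' deposited table. The lowered peaks had a median of -1.65 on the log2 scale, with quartiles of -2.23 and -1.18 and a median SE of 0.39, or 3.14-fold less signal. The raised peaks had a median of 1.18 (quartiles 0.73 and 2.10, median SE 0.31), or 2.26-fold more. Over all peaks the median was 0.01, so losses and gains stood against a centre near 0. Among lowered peaks, 679 of 819 (82.9%) lay below -1 on the log2 scale, 286 (34.9%) below -2 and 71 (8.67%) below -3. Among raised peaks, 49 of 79 (62.0%) lay above 1 and 8 (10.1%) above 3.

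**Figure D1:**
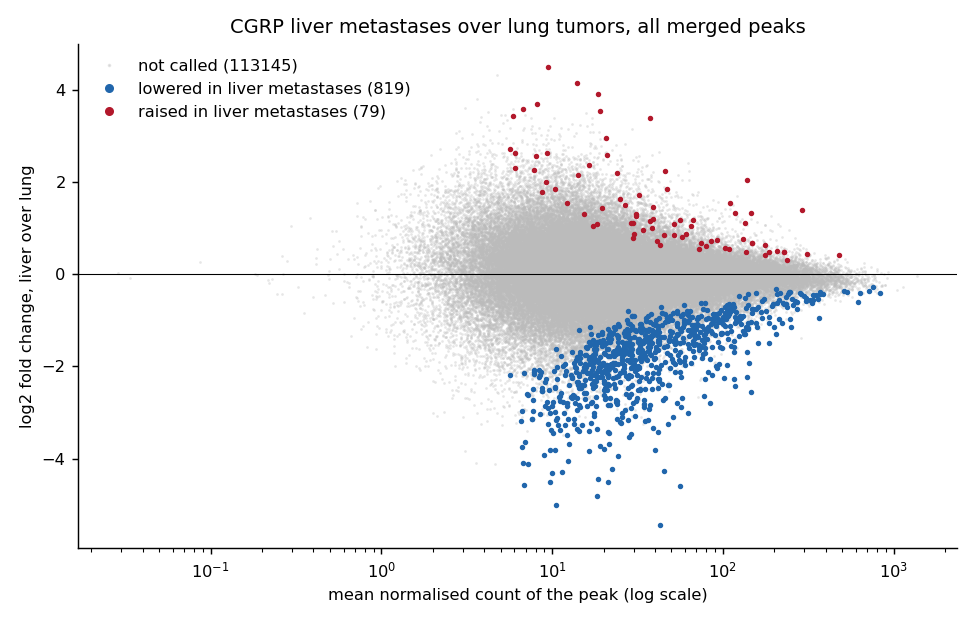
Each point is a merged peak, with its mean normalised count on a log axis and its log2 fold change of liver metastases over lung tumors on the vertical axis. The 819 lowered peaks (blue) lie below 0 over most of the range of counts, and the 79 raised peaks (red) are scattered above 0. Peaks that were not called are grey.

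The excess of losses was present before any adjustment, with 7112 lowered and 3843 raised peaks at an unadjusted p under 0.05. It was sharper in a test for changes beyond a set size. A second set of deposited p-values, read from their values as testing for a log2 change larger than 0.5 in size, called 66 lowered peaks of 113873 (0.058%) and 0 raised ones. In that test 1413 lowered and 442 raised peaks had an unadjusted p under 0.05. The 66 peaks lay on 18 chromosomes, with 9 on chromosome 1 and 6 each on chromosomes 11 and 13, and their log2 fold changes ran from -1.76 to -5.44 with a median of -2.89. In the CMV comparison 50 of these 66 were lowered, 2 were raised and 14 were not called. Of all 113873 peaks tested there, 12.2% were lowered and 34.3% raised, a background not matched on mean count. The raised peak nearest to passing the second test, on chromosome 15 from 70841074 to 70841574, had 4.49 (SE 0.96, adjusted p = 0.0552 in that test) by the authors' deposited table.

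What could be called depended on how strong a peak was. With peaks put in deciles by mean count, the median SE was 0.92 in the weakest decile and 0.17 in the strongest. The median log2 fold change of all peaks was 0.15 in the weakest decile and -0.04 in the strongest. Lowered peaks numbered 1 in the weakest decile, 133 in the seventh and 128 in the strongest, and their median log2 fold change moved from -2.89 in the third decile to -0.78 in the strongest. Raised peaks were most frequent in the strongest decile, which held 21 of 79 with a median of 0.56. Lack of change could be bounded at 32289 peaks (28.3%), whose 95% confidence interval lay wholly between -1 and 1 on the log2 scale. Such peaks made up 87.6% of the strongest decile and 0.0526% of the weakest, so at most weak sites a change of 1 on the log2 scale was not detectable.

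Neighbors of lowered peaks also tended to lie below 0, by less than the lowered peaks themselves. Of the 819 lowered peaks, 670 had another merged peak within 10 kb, and the nearest such neighbor had a median of -0.33 on the log2 scale (quartiles -0.77 and 0.02) where the lowered peaks themselves had -1.65. Of the 670 neighbors, 31 were lowered (4.63%) and 0 were raised, while among 86407 neighbors of peaks that were not called 625 were lowered (0.723%) and 61 raised (0.0706%). For the 66 peaks past the second test, the 48 with a neighbor had a median of -2.81 and their neighbors -0.33. The 60 raised peaks with a neighbor had a median of 1.14, and their neighbors 0.42 (quartiles 0.12 and 0.94), with 2 of them raised (3.33%). The 86407 neighbors of peaks that were not called had a median of 0 to 2 decimals.

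The authors called summits on pooled libraries, of which the CGRP pool holds batch 2 and the CMV pool batch 1. Of the CMV libraries compared, 2 with and 2 without Nfib amplification were in batch 1. The other 6 and 5 were in batch 3, so most lie outside the CMV pool. Of the lowered peaks, 94.6% held a summit of the CGRP pool, against 85.3% of uncalled peaks in the same deciles of mean count, and 77.7% held one of the CMV pool, against 92.7%. Raised peaks held a CGRP summit in 94.9% and a CMV summit in 92.4% of cases, against 83.7% and 92.2%. The CGRP pool includes libraries of both groups compared, so these shares are not independent of the calls.

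The 15 lowered peaks with the largest Wald scores (each log2 fold change over its SE) were spread over 9 chromosomes. Their log2 fold changes lay between -2.21 and -5.44, and all 15 also passed the second test. The deepest, on chromosome 11 from 9588882 to 9589382, had -5.44 (SE 0.65), 43.5-fold less signal at a mean count of 42.7 by the authors' deposited table. Its nearest merged peak, 58869 bp away, was lowered as well, at -3.68 (SE 1.03, adjusted p = 0.0432) by the authors' deposited table. Another merged peak lay within 10 kb of 10 of the 15, and 0 of these 10 passed the threshold, beside 0.779% lowered and 0.0752% raised among all tested peaks. On chromosome 1 from 51571057 to 51571557 the loss was 18.6-fold, while a peak 1298 bp away had -0.63 (adjusted p = 0.875) by the authors' deposited table. The peak on chromosome 5 from 147100986 to 147101486 had -3.68 (SE 0.56, adjusted p = 3.216e-07), and a peak 961 bp away had 0.43 (adjusted p = 0.817), both by the authors' deposited table.

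The other leading losses covered a range of mean counts. Chromosome 3 from 99304572 to 99305072 had a mean count of 18.4 and a change of -4.82 (SE 0.70, adjusted p = 6.526e-08) by the authors' deposited table. On chromosome 6, the sites from 28335037 to 28335537 and from 43411940 to 43412440 had -4.44 (SE 0.60) and -3.95 (SE 0.51) by the authors' deposited table. The peak 692 bp from the latter had -2.18 without passing the threshold (adjusted p = 0.113) by the authors' deposited table. Chromosome 15 held 3 of the 15, at -4.27 (SE 0.62) from 25905504 to 25906004, -2.85 (SE 0.41) from 27252010 to 27252510 and -2.68 (SE 0.35) from 61875258 to 61875758 by the authors' deposited table. On chromosome 14 from 117760730 to 117761230 the value was -2.40 (SE 0.36), and a peak 6370 bp away lay at -0.03 (adjusted p = 0.996), by the authors' deposited table.

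**Figure D2:**
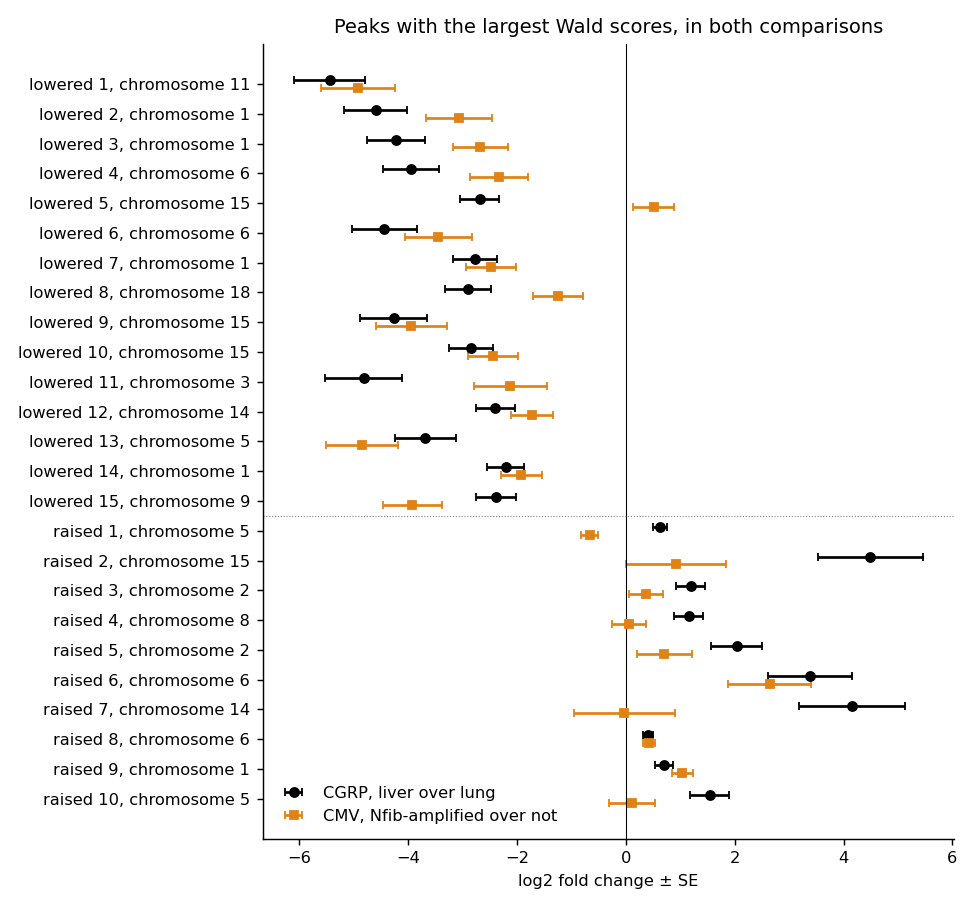
Points give the log2 fold change and bars its SE for the 15 lowered and 10 raised peaks with the largest Wald scores, in CGRP liver metastases over lung tumors (black) and in CMV tumors with over without Nfib amplification (orange). Of the 15 lowered peaks, 14 are also below 0 in the CMV comparison, with the exception on chromosome 15, while the raised peaks take CMV values on both sides of 0.

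Of all 819 lowered peaks, 383 were also lowered in the CMV comparison (46.8%), 83 were raised there (10.1%) and 353 were not called, where 12.2% of all tested peaks were lowered and 34.3% raised. Of the 15 leading losses, 14 were lowered in the CMV comparison. The exception was the site on chromosome 15 from 61875258 to 61875758, which had 0.51 (SE 0.37, adjusted p = 0.256) in CMV tumors by the authors' deposited table. A z test of the difference between the comparisons, Benjamini-Hochberg adjusted over all peaks, gave p = 3.691e-07 at this site, and p = 1.678e-05 with both comparisons centred. Centring subtracts from each comparison its median over all peaks, which was 0.60 in CMV tumors, against 0.01 in CGRP tumors. It therefore widens differences where the CGRP value is the higher and narrows or reverses the others. Across 113873 peaks the same test called 26660 differences (23.4%). It called 3 of the 15 leading losses on the authors' scaling and 2 after centring, of which 1 was called both ways. On chromosome 9 from 114178521 to 114179021 the CMV loss was the deeper, at -3.92 (SE 0.53) against -2.39 (SE 0.37) by the authors' deposited table, with an adjusted p of 0.0693 for the difference on their scaling and 0.00845 after centring.

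The 10 raised peaks with the largest Wald scores lay on 7 chromosomes and ranged from 0.41 to 4.49 on the log2 scale. They included large gains at weak sites and small gains at strong ones. The largest was the site on chromosome 15 from 70841074 to 70841574 given above, 22.5-fold at a mean count of 9.48 by the authors' deposited table. Next came chromosome 14 from 89948003 to 89948503 at 4.15 (SE 0.97, adjusted p = 0.00620), by the authors' deposited table. The small gains had narrow errors. First by Wald score was chromosome 5 from 141124853 to 141125353, where a peak with a mean count of 177.5 had 0.63 (SE 0.12, adjusted p = 3.908e-04) by the authors' deposited table. Chromosome 6 from 95067562 to 95068062, with the highest mean count of any raised peak (479.5), had 0.41 (SE 0.10, adjusted p = 0.00668) by the authors' deposited table. The 5 raised peaks with the highest mean counts, 229.4 to 479.5, had log2 fold changes from 0.30 to 1.39. The largest of these was on chromosome 3 from 141128185 to 141128685 (SE 0.35, adjusted p = 0.0172) by the authors' deposited table.

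Other leading gains lay at peaks of middling count. Chromosome 2 from 116028504 to 116029004 had 1.19 (SE 0.27, adjusted p = 0.00364) and chromosome 8 from 93889612 to 93890112 had 1.15 (SE 0.26, adjusted p = 0.00366) by the authors' deposited table. In the CMV comparison 3 of the 10 were raised and 1 was lowered. Of all 79 raised peaks, 20 were raised there (25.3%) and 18 lowered (22.8%), beside 34.3% and 12.2% of all tested peaks. That background is not matched on mean count. The lowered one of the 10 was the leading site on chromosome 5, which had -0.67 (SE 0.15) in CMV tumors by the authors' deposited table. Its z test of the difference gave a Benjamini-Hochberg adjusted p of 6.219e-08, or 1.467e-17 with both comparisons centred. Over the 10, differences were called at 5 peaks on the authors' scaling and at 8 after centring, of which 5 were called both ways. At these 5 the CGRP value was the higher, so centring widened the difference and was no separate check.

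Changes at the strongest lowered peaks were small. The 5 lowered peaks with the highest mean counts, 618.6 to 833.5, had log2 fold changes from -0.28 to -0.60 by the authors' deposited table, which are losses of 1.22-fold to 1.51-fold. On chromosome 18 from 49915059 to 49915559 the value was -0.60 (SE 0.13, adjusted p = 0.00268), against 0.46 (SE 0.15, adjusted p = 0.00700) in CMV tumors, both by the authors' deposited table. All 5 had CMV values above 0, from 0.08 to 0.46, and 2 were raised there. Differences were called at all 5 on the authors' scaling and at 0 after centring. The CMV median subtracted in centring, 0.60, is taken over all peaks. Among peaks with a mean count of 50 or more, the CMV median was 0.06 on the authors' scaling. Centring therefore cannot decide whether the opposite signs at these strong peaks depend on the scaling.

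Most lowered peaks had no other lowered peak within 100 kb, where 0.779% of all tested peaks were lowered. Within 10 kb, the nearest neighbor was lowered more often beside lowered peaks (4.63%) than beside uncalled ones (0.723%). Joining lowered peaks within 100 kb of each other gave 701 loci, of which 609 held a single lowered peak. The other 92 loci held 210 lowered peaks (25.6%) over a median span of 39.8 kb. Only 7 loci held 4 or 5, and these are described next together with all merged peaks in their span and within 100 kb on either side. Since the loci were chosen for their called peaks, the values are a description.

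**Figure D3:**
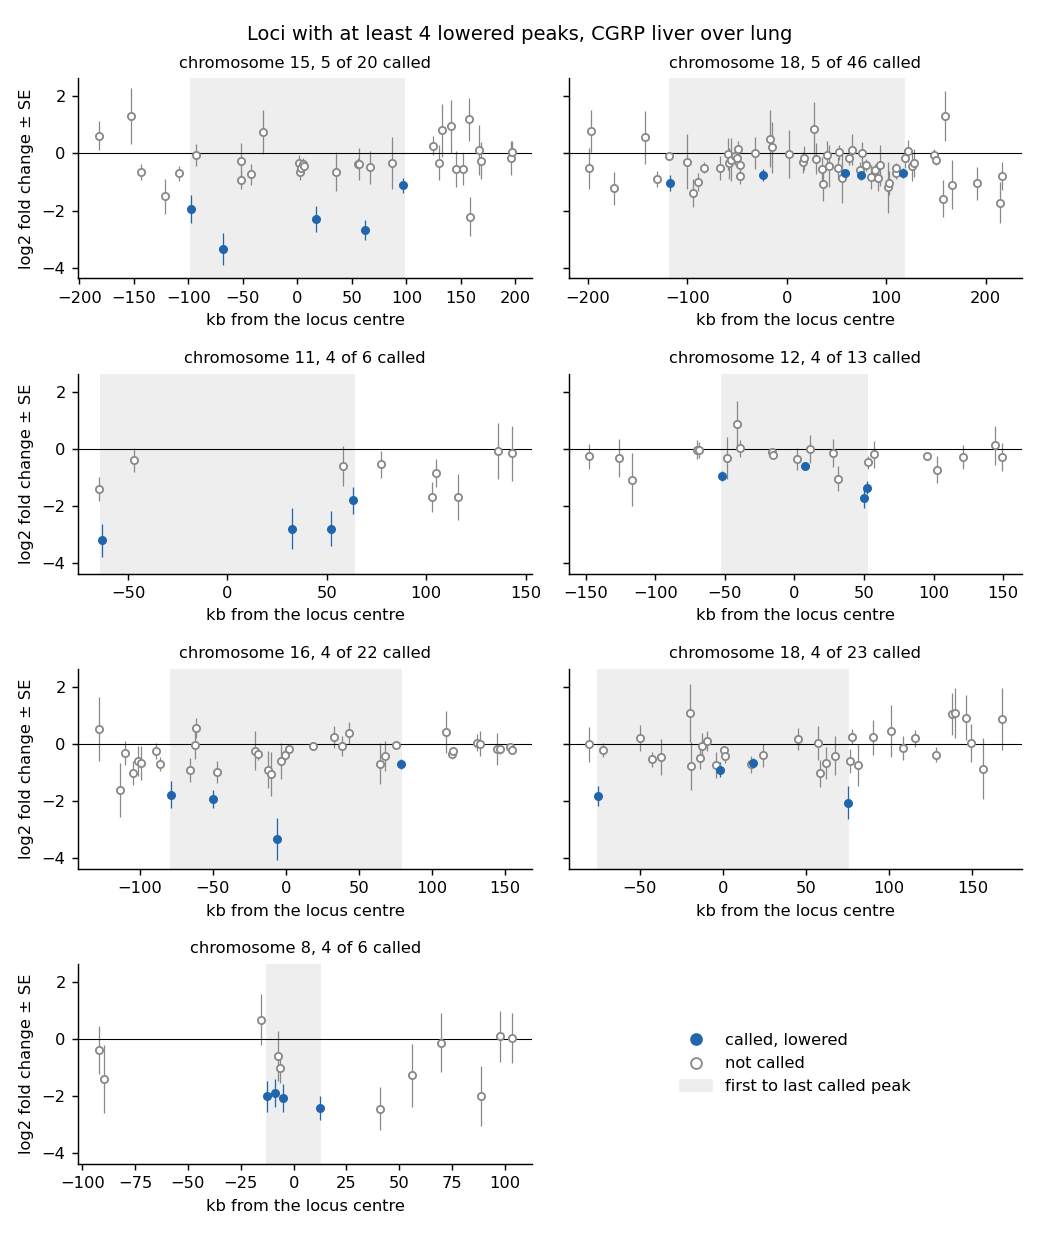
Each panel is a locus with at least 4 lowered peaks, with distance from its centre in kb on the horizontal axis and the log2 fold change of liver over lung with its SE on the vertical axis. Called peaks (blue) lie between -0.60 and -3.35 and are interspersed with peaks that were not called (open), and on chromosomes 8 and 11 they make up 4 of the 6 peaks in the span.

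The locus on chromosome 15 from 61716360 to 61911341 held 5 lowered peaks among 20, with a median of -2.31 for the called peaks and -0.50 for all 20, of which 19 lay below 0. Its lowered peaks had -1.95, -3.35, -2.31, -2.68 and -1.12 from the proximal to the distal end by the authors' deposited table, with SEs between 0.26 and 0.56. The first pair by position was also lowered in CMV tumors, at -1.99 and -1.53 by the authors' deposited table, and the last pair was not, at 0.51 and 0.03. In the flanks, 17 peaks had a median of -0.16.

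On chromosome 11 from 9200935 to 9327894, 4 of 6 peaks were lowered, with a median of -2.80, and all 6 lay below 0. The 7 flanking peaks had a median of -0.85. This locus lies close to the site of the deepest loss. Within it, the end peaks took opposite signs in CMV tumors: that from 9200935 to 9201435 had -3.21 (SE 0.57) in CGRP and -4.66 (SE 0.71) in CMV tumors by the authors' deposited table. The peak at the other end, from 9327394 to 9327894, had -1.82 (SE 0.48) in CGRP and 1.74 (SE 0.52) in CMV tumors by the authors' deposited table. There, the z test of the difference gave a Benjamini-Hochberg adjusted p of 4.315e-05, and 4.727e-04 after centring.

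The compact locus on chromosome 8 from 43674550 to 43699843 spanned 25.3 kb and had 4 of 6 peaks lowered, between -1.90 and -2.44, with all 6 below 0. The strongest of these peaks, from 43699343 to 43699843, had a mean count of 117.9 and -2.44 (SE 0.42, adjusted p = 1.757e-05) by the authors' deposited table. In CMV tumors 1 of the 4 was lowered. An uncalled peak between them, from 43679516 to 43680016, had -0.61 (SE 0.89) in CGRP and 3.59 (SE 0.91, adjusted p = 5.097e-04) in CMV tumors by the authors' deposited table.

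Of the 7 loci, that with the widest contrast at a single called peak was on chromosome 16 from 55741499 to 55899165, where 4 of 22 peaks were lowered. The peak from 55813966 to 55814466 had -3.33 (SE 0.73, adjusted p = 0.00247) in CGRP liver metastases and 3.51 (SE 0.64, adjusted p = 1.509e-06) in Nfib-amplified CMV libraries by the authors' deposited table. The difference had a Benjamini-Hochberg adjusted p of 5.740e-09 in the z test, and 2.187e-08 after centring. The next merged peak, from 55816366 to 55816866, had a loss in CMV tumors instead: -0.60 (SE 0.64) in CGRP and -5.15 (SE 0.76, adjusted p = 2.622e-09) in CMV tumors by the authors' deposited table. A further peak of the locus, from 55770286 to 55770786, was lowered in both, at -1.95 (SE 0.32) and -1.59 (SE 0.36) by the authors' deposited table. Neighboring sites of the same locus thus took different directions in the CMV comparison, where 34.3% of all tested peaks were raised and 12.2% lowered.

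The remaining loci combined smaller losses. Chromosome 18 held 2 of the 7 loci. From 25646476 to 25881262, 5 of 46 peaks were lowered, each between -0.69 and -1.04, while all 46 had a median of -0.43 and the 18 flanking peaks -0.39. From 11922388 to 12072888, 4 of 23 were lowered with a median of -1.38, against 0.19 in 15 flanking peaks. On chromosome 12 from 32598419 to 32702878, 4 of 13 were lowered, and the strongest, from 32658330 to 32658830 with a mean count of 269.9, had -0.60 (SE 0.15, adjusted p = 0.0106) by the authors' deposited table. The peak of this locus from 32598419 to 32598919 was lowered in CGRP tumors at -0.95 (SE 0.18) and raised in CMV tumors at 0.81 (SE 0.20) by the authors' deposited table, with a z test adjusted p of 4.031e-08 for the difference and 2.069e-04 after centring.

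Raised peaks formed 73 loci, of which 68 held a single raised peak. The only one with 3 was on chromosome 4 from 149283861 to 149383402. All 19 peaks in its span lay above 0, with a median of 1.33, and the 35 flanking peaks had a median of 1.04, so the called peaks did not stand out from their surroundings. The called peaks had 1.72 (SE 0.45), 1.33 (SE 0.37) and 1.32 (SE 0.37) by the authors' deposited table. In CMV tumors they had 1.65, 0.24 and 0.19, of which the first passed the threshold, by the authors' deposited table.

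The other 4 raised loci held 2 called peaks each. On chromosome 2, peaks 711 bp apart from 109517359 to 109518570 had 1.55 (SE 0.37) and 2.03 (SE 0.46) by the authors' deposited table, with 13 flanking peaks at a median of 0.95. The other chromosome 2 locus, from 75205167 to 75241858, had 3.42 (SE 0.96) and 2.16 (SE 0.56) at mean counts of 5.94 and 14.1 by the authors' deposited table, and both peaks were also raised in CMV tumors. On chromosome 9 from 95514108 to 95538550 the pair had 1.31 (SE 0.32) and 1.09 (SE 0.30), against -1.10 (SE 0.40) and -0.68 (SE 0.36) in CMV tumors, by the authors' deposited table. On chromosome 5 from 139820946 to 139856751 the pair had 0.61 (SE 0.15) and 0.49 (SE 0.13), against -0.79 (SE 0.20) and -0.88 (SE 0.16) in CMV tumors, by the authors' deposited table. The z test called all 4 peaks of the chromosome 9 and chromosome 5 loci different between the comparisons. Its Benjamini-Hochberg adjusted p ran from 6.589e-08 to 0.00269. These peaks were also called after centring, which widens differences of this direction and so was no separate check.

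Beyond single peaks, whole stretches of chromosomes were shifted by small amounts. Over the 26447 peaks with a mean count of 50 or more, the median log2 fold change was -0.03 (quartiles -0.25 and 0.17), and 46.7% lay above 0. Chromosome 9 had the highest median, 0.14, with 70.6% of its 1529 such peaks above 0. Chromosome 11 followed at 0.09 with 65.8% of 1637 above 0. The lowest medians were on chromosome 19 (-0.23), chromosome 18 (-0.16), chromosome 4 (-0.15) and chromosome X (-0.14). Chromosomes 19, 4 and X are thinly covered, with 315, 2911 and 831 merged peaks, so that chromosome 18, where 32.4% of 1217 peaks lay above 0, is the best sampled of the 4. Shares of called peaks went with the median on some chromosomes and not on others. Chromosome 18 had 61 lowered peaks (1.17% of those tested) and 0 raised ones, and chromosome 9 had 20 lowered (0.340%) and 9 raised (0.153%). Chromosome 19, with the lowest median, had 1 lowered peak (0.331%), and chromosome 11, with the second highest, had 1 raised peak (0.0162%). Chromosome 5 held 24 of the 79 raised peaks at a median of 0.03.

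**Figure D4:**
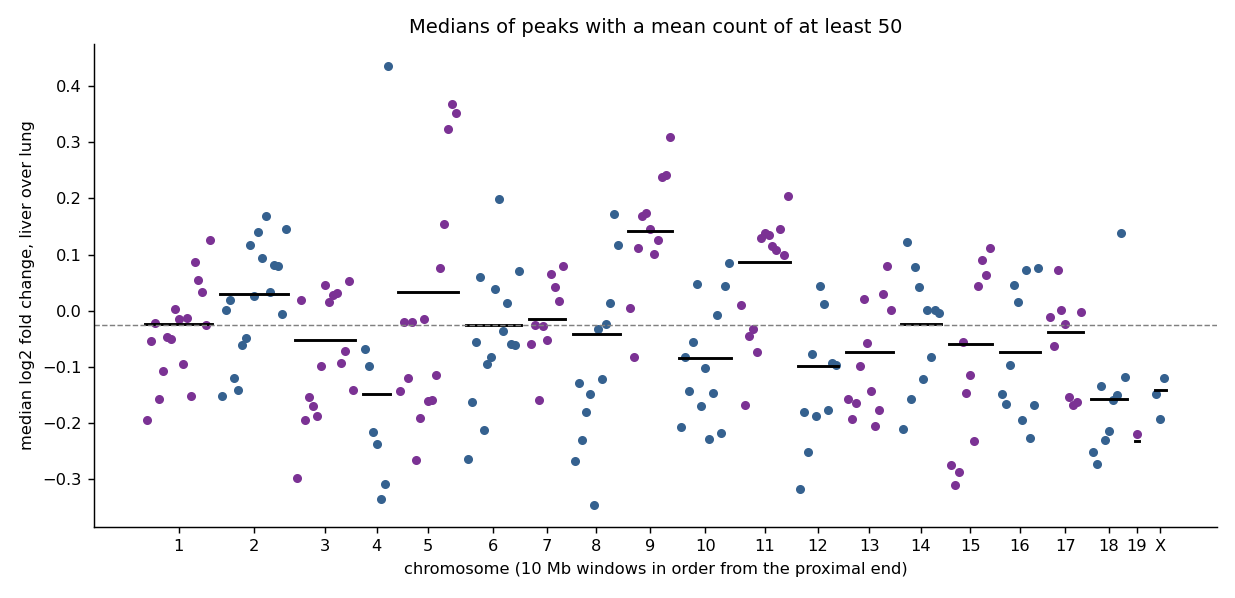
Points give the median log2 fold change of liver over lung in 10 Mb windows with at least 30 peaks of mean count 50 or more, in order along each chromosome, and black bars the median of the chromosome. The dashed line is the median of all such peaks (-0.03), and 10 of the 11 windows of chromosome 9 and 1 of the 9 windows of chromosome 18 lie above it.

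By 10 Mb windows with at least 30 such peaks, 218 in all, medians ran from -0.35 to 0.44. In 10 windows the median lay more than 0.2 above the overall one, and in 20 more than 0.2 below. The highest was on chromosome 4 from 140 to 150 Mb, at 0.44 over 72 peaks (quartiles 0.10 and 0.97). Its merged peaks lay only between 148 and 150 Mb, which were looked at by megabase after the window had been seen. In the megabase from 148 Mb, 118 of 141 merged peaks lay above 0 with a median of 0.46 and 0 raised peaks, and in that from 149 Mb, 108 of 133 lay above 0 with a median of 0.71 and 4 raised peaks. All 4 raised peaks of chromosome 4 were in that last megabase, which also holds the raised locus with 3 called peaks.

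The next 3 windows lay side by side on chromosome 5, from 130 to 160 Mb, with medians of 0.32, 0.37 and 0.35. In 5 Mb steps the rise began earlier, at 0.15 from 115 to 120 Mb and 0.19 from 120 to 125 Mb, after -0.01 from 110 to 115 Mb, and reached 0.42 from 140 to 145 Mb. CMV medians over the same steps were below 0 throughout, from -0.20 to -0.75. The fifth window closed chromosome 9, from 120 to 130 Mb, at 0.31 with 91.3% of 69 peaks above 0. Along chromosome 9, medians of 5 Mb steps lay between -0.14 and 0.01 up to 40 Mb, and between 0.06 and 0.31 from there on.

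At the low end, the window between 50 and 60 Mb of chromosome 8 had -0.35. Chromosome 4 held a pair, with -0.33 between 60 and 70 Mb and -0.31 between 90 and 100 Mb. The first 10 Mb of chromosome 12 had -0.32, and chromosome 15 between 10 and 20 Mb had -0.31. On chromosome 12, 6.45% of the 62 peaks of the window lay above 0. Raised and lowered peaks were unevenly placed among these windows. The 5 highest windows held 26 raised and 3 lowered peaks of 1875 tested (1.39% and 0.160%), the 5 lowest 0 raised and 14 lowered of 1169 (1.20%), and the rest of the genome 0.0519% raised and 0.786% lowered. The windows were chosen by the same fold changes, so this is a description. In the CMV comparison the 5 lowest windows had medians from -0.34 to 1.26 and the 5 highest from -0.66 to 0.14, so both sets held medians of either sign there.

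Shifts had a common orientation along the chromosomes. Mouse chromosomes have their centromere at one end, from which positions are counted, and each was divided into 3 equal parts, proximal, middle and distal, by the span of its merged peaks. On 17 of 18 chromosomes the median of the distal part lay above that of the proximal part, with a median difference of 0.16 and a range from -0.14 to 0.38. Proximal medians were below 0 on 17 chromosomes, and distal ones above 0 on 11. The largest differences were on chromosome 4, from -0.15 to 0.24, on chromosome 15, from -0.25 to 0.08, and on chromosome 7, where the proximal part held 11 peaks only. The exception was chromosome 17, with 0.05 proximally and -0.10 distally. In the CMV comparison the distal part was the higher on 6 of 18 chromosomes, with a median difference of -0.13. Chromosomes 19, X and Y were left out for their few peaks, and this division was chosen after the windows had been seen.

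**Figure D5:**
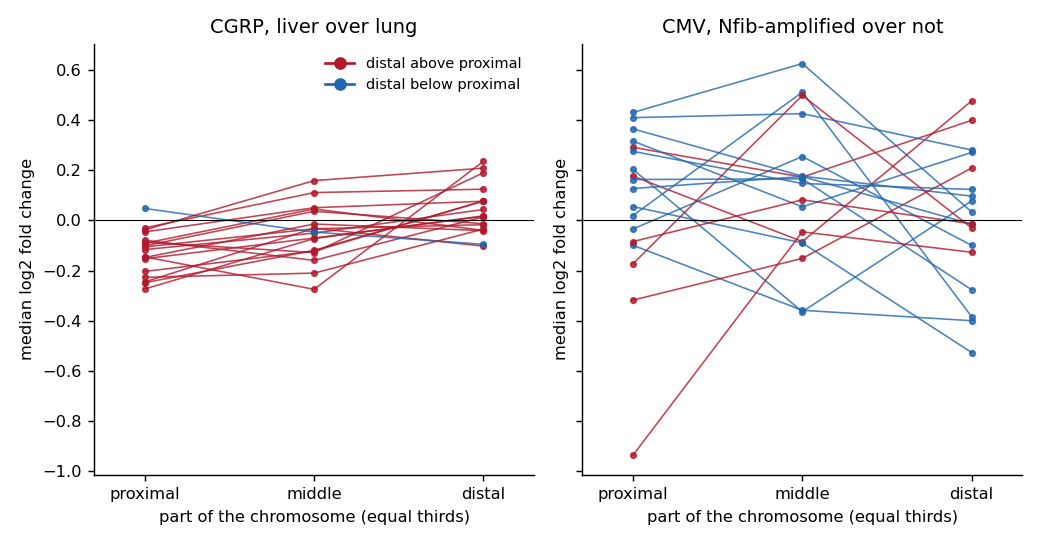
Lines join the median log2 fold changes of the proximal, middle and distal parts of 18 chromosomes, over peaks with a mean count of 50 or more, for CGRP liver over lung (left) and for CMV tumors with over without Nfib amplification (right), on the same vertical scale. In the CGRP comparison 17 lines end above where they start (red), and in the CMV comparison 6 do.

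Where peaks were sparse, medians were lower. Peaks were put in 5 classes of similar size by the number of merged peaks in their megabase. In the sparsest class (1 to 52 per Mb), peaks with a mean count of 50 or more had a median of -0.09 with 38.8% above 0, and 0.872% of tested peaks were lowered. In the other classes medians lay between -0.03 and 0.00, and 0.723% to 0.799% were lowered. The part of peak density in the shifts along chromosomes was not tested.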

How the data were processed

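ATAC-seq was done on 48 libraries, per the labels' protocols with Tn5 transposase and a modified Nextera kit. The submitters' processing notes name Bowtie2, MACS2 and DESeq2, and build mm9. Covariates, and whether read ends were moved to the Tn5 cut, are not stated there. The authors' mean normalised count (a signal), log2 fold changes, Wald scores and p-values were used as deposited, and the file headers carry DESeq2's column names. Their direction rests on the table's name. The deposited summit lists carry a score read as −log10 of the q-value, which was not used beyond the summits' positions (within 250 bp of a peak's centre). Without any adjusted p were 8922 peaks, of which 170 also lacked a p. Those of them with a p had a mean count of at most 5.45. This limit does not hold for the 170, since a peak on chromosome 18 from 25663513 to 25664013 had 10.95. The deposited adjusted p equals a Benjamini-Hochberg adjustment over the 105121 peaks that have one.

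Computed here were loci, neighbors, medians by chromosome and window, and a two-sided z test of the difference between comparisons. Python 3.11.15, pandas 2.3.3, numpy 2.4.6 and scipy 1.17.1 were used. The z test and the window medians were checked on changes simulated from the deposited SEs. That check cannot show whether those SEs, the scaling or the independence of the libraries hold. Named are the 15 lowered and 10 raised peaks with the largest Wald scores, the 5 in each direction with the highest mean count, lowered loci with at least 4 and raised loci with at least 2 called peaks, and the 5 highest and 5 lowest windows. Some of these are given as ranges. Members and lists were chosen with earlier results of these data known. Gene tables were at hand for GRCm38.p6 only, so gene lists, host-tissue loci and sequences were not analysed here.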

Additional observations from a re-analysis of the deposited data

How the results depend on the processing

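The count of peaks called depended on the threshold. At an adjusted p under 0.01, 389 peaks were called (373 lowered, 16 raised), at one under 0.1, 1561 (1331 lowered, 230 raised), and in the second deposited test 66 (66 lowered, 0 raised). Under the other alternatives (adjustment over all peaks with a p, a mean count of at least 20, centring, and leaving out chromosome 5 or X) the totals ranged from 823 to 999, with 54 to 86 raised. The raised count is lowest, at 54, without chromosome 5. Loci numbered 642 to 738 lowered and 69 to 74 raised at joining distances of 250 and 50 kb. The share of windows shifted by more than 0.2 was 13.8% and ranged from 10.8% to 15.7% with other count minimums, 5 Mb windows or a weighted mean. The count of chromosomes with a higher distal part was 16 or 17 of 18 with a count minimum of 20, 100 or none and with 2 parts in place of 3, settings chosen after seeing the data. Of the 34 named peaks, 19 no longer passed in the second deposited test and 7 no longer passed at an adjusted p under 0.01, and those with a value under the other settings passed there. Differences from the CMV comparison numbered 26660, or 28429 after centring.

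No paired analysis was possible because the tables hold fitted values and no value per library; for the same reason no library was left out and no other normalization was tried. Other distances from peak to gene were not run, since no gene was assigned. Depth is unknown, and the SE of each peak limits what was called.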
